A study of Homo sapiens with 2 samples.

Results

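The classical cadherins and catenins examined here are 8 genes, CDH1, CDH2, CDH3, CDH11, CDH13, CTNNA1, CTNNB1 and CTNND1, taken by gene symbol from a table of 61806 genes. All 8 were found once in the table and all 8 passed the filter on low values, a mean of at least 1 CPM (a count scaled to library size), which 13375 genes passed. The measurements are counts of polyadenylated RNA from SAS cells, an established line from a human tongue squamous cell carcinoma labelled as wild type and epithelial. The control library came from cells given a negative control siRNA, and the knockdown library from cells given an siRNA, designated number 2, against COL17A1, the collagen XVII gene. Both cultures were harvested 48 hours after lipid transfection, and the study concerns COL17A1 in the invasiveness and hypoxia response of such carcinomas. Each group holds 1 library and the design rests on 1 siRNA, so that no difference has a replicate check, no test between conditions was possible, and each interval in brackets is a 95% interval for counting error alone.

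Classical cadherins are calcium-dependent transmembrane proteins that bind like cadherins on the neighbouring cell and build the adherens junction. Their cytoplasmic tails bind p120-catenin, which holds the cadherin at the surface, and beta-catenin, which recruits alpha-catenin and through it actin. Beta-catenin has a separate role in the nucleus, where it acts with TCF and LEF factors in Wnt signalling, and the free protein is degraded by a destruction complex. In stratified squamous epithelium E-cadherin and P-cadherin are the main classical cadherins, and N-cadherin and cadherin 11 are better known from mesenchymal and neural cells. Transcript levels do not give the level of protein or its place in the cell.

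The control library held 15980152 counts and the knockdown library 21601195. COL17A1 checked the labels, with 3116 counts under control siRNA and 411 under COL17A1 siRNA, a log2 ratio of -3.39 [-3.55 to -3.25], knockdown over control after scaling by trimmed means (TMM). All 10 markers fixed for epithelium were measured. Their summed level was 1447 FPKM (counts per kilobase of exon, scaled to library size) with control siRNA and 1848 with COL17A1 siRNA. KRT5 and TP63 among them mark squamous epithelium, while EPCAM, KRT8 and KRT18 are not particular to it. In the control library EPCAM, KRT8 and KRT18 stood at 138, 97.2 and 270 FPKM. The 10 fibroblast markers summed to 2.70 and 1.86 FPKM, with COL1A2, COL3A1, THY1 and POSTN at 0 in both libraries, and the 8 endothelial markers to 0.32 and 0.24 FPKM. The 8 leukocyte markers summed to 2.63 and 3.77 FPKM with PTPRC at 0, and the 8 neural markers to 0.43 and 0.46 FPKM.

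Per length, P-cadherin was the most abundant cadherin transcript and alpha- and beta-catenin were more abundant than p120-catenin, while N-cadherin, cadherin 13 and cadherin 11 were minor. CDH3, which encodes P-cadherin of basal epithelial layers, stood at 68.2 FPKM [66.6 to 69.8] in control cells and 62.4 [61.1 to 63.7] in knockdown cells. CTNNA1, alpha-catenin, stood at 65.0 FPKM [63.7 to 66.3] and 55.2 [54.2 to 56.3]. CTNNB1, beta-catenin, stood at 64.5 FPKM [63.4 to 65.7] and 43.6 [42.7 to 44.4]. By the deposited exonic sizes, the control levels of CTNNA1 and CTNNB1 overlapped within counting error, and those in the knockdown library did not. CDH1, E-cadherin, followed at 39.7 FPKM [38.5 to 41.0] and 41.7 [40.6 to 42.9], and its knockdown interval overlapped that of CTNNB1. In knockdown cells the 5478 counts of CDH1 and 11064 of CTNNB1 were divided by deposited exonic sizes of 6076 and 11759 bases. Their longest annotated transcripts are near equal, at 4889 and 4888 bases, so this overlap depends on the length used. CDH3, CTNNA1, CTNNB1 and CDH1 lay between percentiles 91.6 and 95.6 of the tested genes by FPKM in both libraries.

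The other 4 genes were far less abundant. CDH13, or T-cadherin, which is held in the membrane by a lipid anchor and has no cytoplasmic tail, stood at 3.55 FPKM [3.27 to 3.84] and 2.44 [2.24 to 2.64]. CTNND1, p120-catenin, stood at 2.62 FPKM [2.42 to 2.83] and 2.99 [2.81 to 3.18]. In FPKM CDH13 was the higher of this pair in the control library and CTNND1 in the knockdown library. This order depends on the deposited exonic sizes, 11025 bases for CDH13 and 15212 for CTNND1. In counts CTNND1 was not below CDH13 in either library, at 636 and 983 beside 625 and 580. CDH2, N-cadherin, stood at 2.08 FPKM [1.84 to 2.33] and 1.18 [1.03 to 1.35]. CDH11, cadherin 11, known from osteoblasts and fibroblasts, was lowest at 0.26 FPKM [0.20 to 0.34] and 0.10 [0.065 to 0.14], at percentiles 3.57 and 0.516 of the tested genes.

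**Figure D1:**
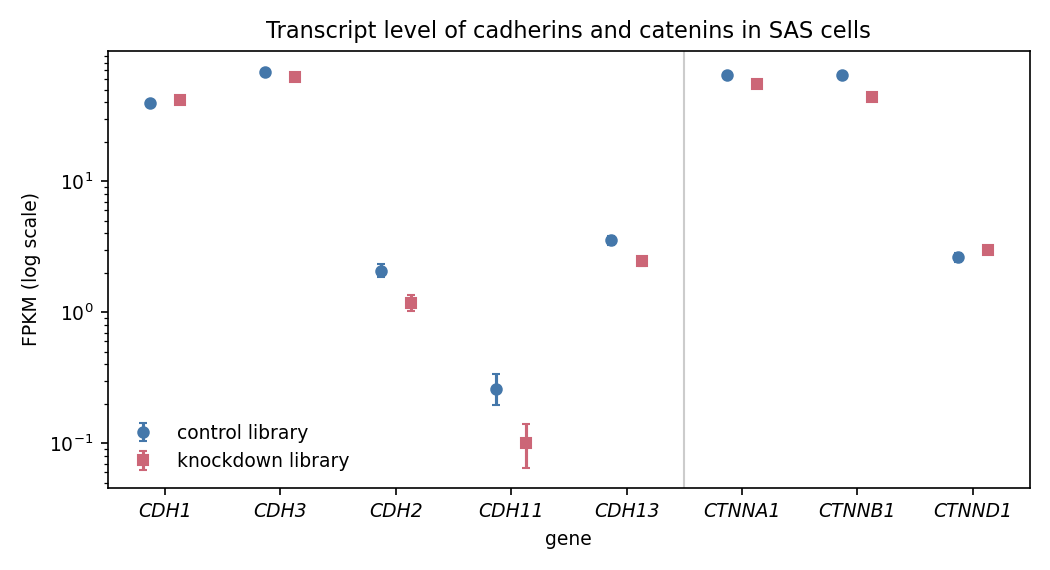
FPKM on a log scale for each cadherin (left of the line) and catenin (right) in the control library (circles) and the knockdown library (squares), with 95% Poisson intervals for counting error, hidden by the symbol where narrow. CDH3, CTNNA1, CTNNB1 and CDH1 lie between 39.7 and 68.2 FPKM in the control library, and CDH11 at 0.26 is the lowest.

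The level of CTNND1 is uncertain. Its locus (ENSG00000198561, GRCh38 chromosome 11, 57753243 to 57819546, plus strand, exonic size 15212 bases) is overlapped on the same strand by ENSG00000288534, 57712582 to 57818431, a locus with 6239 exonic bases that the table gives no symbol and that had 2 counts in each library. GENCODE release 29 lists a readthrough gene, TMX2-CTNND1, over the same locus. How reads shared by such loci were counted is not given in the sources used here. CTNND1 was 24.8 times below CTNNA1 in FPKM with control siRNA and 18.5 times below it with COL17A1 siRNA, and the part of the overlap in this gap was not tested.

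In the comparison of the libraries, 3 of the 8 genes were lower after COL17A1 siRNA, 0 were higher and 5 were neither. A gene was called at a 1.5-fold or larger difference with an interval that excluded no difference, a rule that describes these libraries and not the conditions. The same rule called 11.7% of the 13375 tested genes lower and 12.2% higher. The lower genes were CDH11 and CDH2, the weakly expressed mesenchymal cadherins, and CTNNB1. The median log2 ratio of the 8 genes was -0.43, beside 0.03 over all tested genes. At 2-fold, which 3.59% of the tested genes reached in the lower and 3.04% in the higher direction, CDH11 was the only member called.

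**Figure D2:**
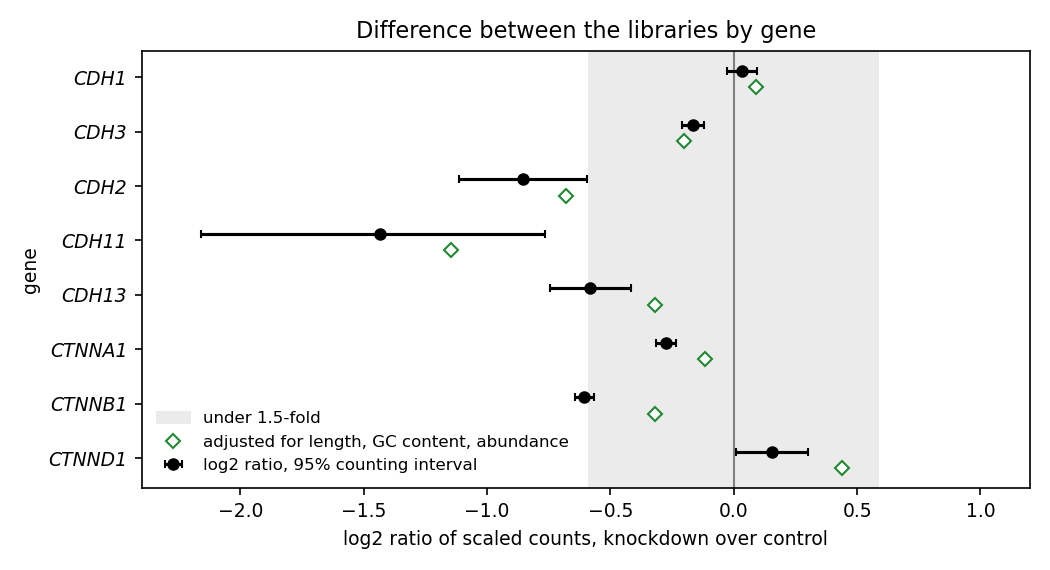
Scaled counts of the knockdown library over the control library, as a log2 ratio for each gene with its 95% counting interval (black circles), and the ratio after the fit on length, GC content and abundance is subtracted (open diamonds). CDH2, CDH11 and CTNNB1 lie below the grey band of differences under 1.5-fold, and after the adjustment CDH2 and CDH11 still do.

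CDH1 (ENSG00000039068, chromosome 16, 68737292 to 68835537, plus strand) had 3857 control counts and 5478 in the deeper knockdown library, or 245 and 250.2 CPM after scaling. The libraries were level within counting error, at a log2 ratio of 0.03 [-0.03 to 0.09]. Variation between cultures adds to this interval and is not known here. CDH3 (ENSG00000062038, chromosome 16, 68636189 to 68727468, plus strand) ends 9824 bases before CDH1 begins, in tandem with it. It had 6961 and 8615 counts, or 442 and 393 CPM, a log2 ratio of -0.17 [-0.21 to -0.12], lower by 1.12-fold. Between these libraries the neighbours thus differed from each other beyond counting error. The CDH3 to CDH1 ratio of the knockdown library was 0.871 [0.827 to 0.918] of that in the control library. Scaling does not touch this quantity, but variation between cultures adds to its interval as well.

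CDH2 (ENSG00000170558, chromosome 18, 27932879 to 28177946, minus strand) had 285 and 219 counts, or 18.1 and 10.0 CPM after scaling. It was 1.81-fold lower in the knockdown library, at -0.85 [-1.11 to -0.59], with a lower bound on the difference just past 1.5-fold. CDH11 (ENSG00000140937, chromosome 16, 64943753 to 65126112, minus strand) had 55 and 28 counts, or 3.49 and 1.28 CPM. It was 2.70-fold lower, at -1.44 [-2.16 to -0.77], the widest interval of the 8 genes. CDH13 (ENSG00000140945, chromosome 16, 82626965 to 83800640, plus strand) had 625 and 580 counts, or 39.6 and 26.5 CPM. At -0.58 [-0.75 to -0.42], 1.496-fold lower, it fell just short of the 1.5-fold limit, 0.585 on the log2 scale, and was not called. HSBP1, which overlaps the end of CDH13 on the same strand in the table, had 2431 and 4211 counts and a ratio of 0.32, and how reads of this overlap were counted is not known here.

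All 3 minor cadherins were thus lower relative to CDH1. The ratio of CDH2 to CDH1 counts in the knockdown library was 0.541 [0.449 to 0.651] of that in the control library, that of CDH11 to CDH1 0.358 [0.219 to 0.576], and that of CDH13 to CDH1 0.653 [0.578 to 0.738]. In FPKM, CDH1 exceeded CDH2 19.1-fold in the control and 35.3-fold in the knockdown library. Among the minor cadherins, CDH11 was also lower relative to CDH13, at 0.549 [0.330 to 0.894] of the control proportion. The intervals for CDH2 relative to CDH13, at 0.828 [0.668 to 1.03], and for CDH11 relative to CDH2, at 0.663 [0.391 to 1.10], included no difference. The summed fibroblast marker level was 2.70 and 1.86 FPKM, of which FAP alone made 2.53 and 1.57. The other 9 fibroblast markers summed to 0.17 and 0.29 FPKM, near the floor. COL1A1 had 15 and 32 counts, PDGFRB 6 and 17 and PDGFRA 0 and 5, with intervals that included no difference. DCN and LUM had 1 and 0 counts each, and the rest had none. These counts are too low to give a direction. The part of fibroblasts in the differences of the minor cadherins was not tested. Fewer cells of a type and less RNA per cell cannot be told apart in bulk RNA.

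By composition, P-cadherin and E-cadherin together made 94.8% of the summed FPKM of the 5 cadherins with control siRNA and 96.6% with COL17A1 siRNA. CDH3 held 59.9% and 57.9% of the sum and CDH1 34.9% and 38.7%. CDH13 held 3.12% and 2.26%, CDH2 1.83% and 1.10%, and CDH11 0.228% and 0.0905%. The sum itself was 114 and 108 FPKM, so the E-cadherin share was larger while the CDH1 level in FPKM was close to its control value. Of 14 other classical cadherins 2 were tested. CDH24 had 341 and 704 counts and a ratio of 0.57 [0.38 to 0.76], just under 1.5-fold. Its 5.69 and 8.70 FPKM were more than CDH13, by exonic sizes of 3748 bases for CDH24 and 11025 for CDH13. In counts CDH24 was below CDH13 in the control library and above it in the knockdown library, where CDH13 had 625 and 580. CDH4, R-cadherin, had 65 and 64 counts and a ratio of -0.50 [-1.02 to 0.02]. Once a fit on exonic length, GC content and abundance was subtracted, CDH24 was at 0.18 and CDH4 at -0.64. Of the other 12, 10 had no count in either library, and CDH5, the endothelial cadherin, had 3 and 0.

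**Figure D3:**
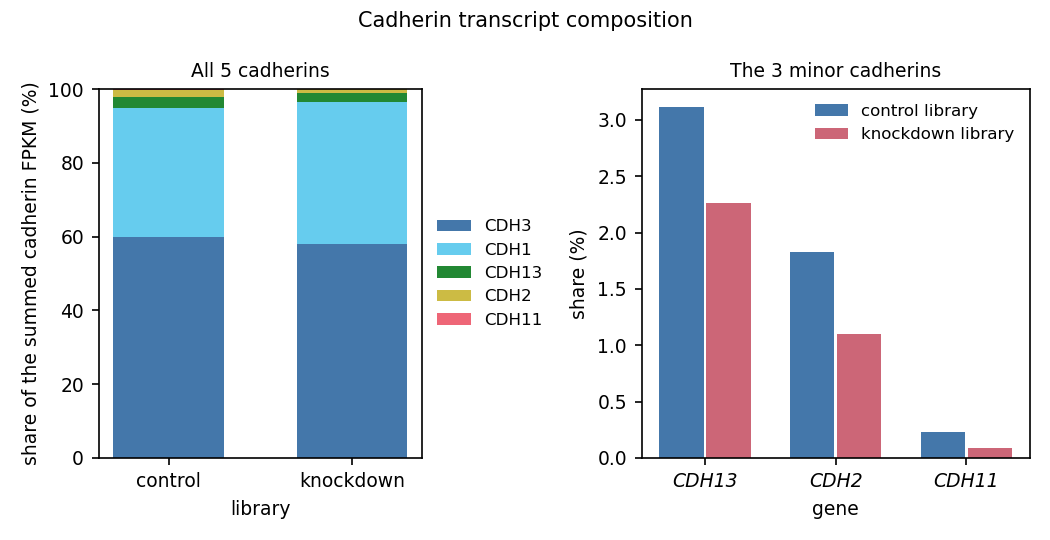
Left, share (%) of each cadherin in the summed FPKM of the 5 cadherins, stacked for each library. Right, the same shares of the 3 minor cadherins on a larger scale, in which each is smaller in the knockdown library, such as CDH2 at 1.83% and 1.10%.

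Of the catenins, beta-catenin was lower and p120-catenin was not. CTNNB1 (ENSG00000168036, chromosome 3, 41194741 to 41260096, plus strand) had 12126 control and 11064 knockdown counts, or 769 and 505 CPM. It was 1.52-fold lower, at -0.61 [-0.64 to -0.57], so its interval reached across the 1.5-fold limit and it was the called member nearest to that limit. With scaling by total counts it lay at -0.57 and was not called, and it lay at -0.32 once a fit on exonic length, GC and abundance was subtracted, called the adjustment from here on. CTNNA1 (ENSG00000044115, chromosome 5, 138610967 to 138935034, plus strand) had 9169 and 10534 counts, or 582 and 481 CPM, and a ratio of -0.27 [-0.31 to -0.23], or 1.21-fold lower. CTNND1 had 636 and 983 counts, or 40.3 and 44.9 CPM, and a ratio of 0.15 [0.01 to 0.30].

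Since these 3 proteins assemble on the same cadherin tail, their proportions are given as well. In FPKM, CTNNB1 and CTNNA1 were near parity in the control library, with a ratio of 0.993, and at 0.789 in the knockdown library. These levels depend on the deposited exonic sizes, 11759 bases for CTNNB1 and 8830 for CTNNA1. In counts CTNNB1 exceeded CTNNA1 in both libraries, at 12126 and 11064 beside 9169 and 10534. The ratio of their counts in the knockdown library was 0.794 [0.764 to 0.825] of that in the control library. Relative to CDH1, CTNNB1 was at 0.642 [0.612 to 0.675] and CTNNA1 at 0.809 [0.769 to 0.850] of the control proportion. CTNND1 was at 1.35 [1.21 to 1.49] of its control proportion to CTNNA1, with the doubt about its counts given above.

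The promoters of CDH2 and CTNNB1 are shown because these are the called members whose sequence RefSeq (GRCh38.p14) gives in the table used here, which matched 3 of the 8 genes, CTNNA1 being the third. Each run spans 250 bases before to 50 after the transcript start, written 5′ to 3′ on the gene's strand. Capitals mark GC boxes, GGGCGG or CCGCCC, known as sites of Sp factors, and the TATA motif, TATAA or TTATA. The RefSeq starts lie inside the spans the table gives for both genes, so other starts are not covered. The CDH2 run is chr18:28177081-28177380, minus strand, and the CTNNB1 run chr3:41199255-41199554, plus strand.
CDH2: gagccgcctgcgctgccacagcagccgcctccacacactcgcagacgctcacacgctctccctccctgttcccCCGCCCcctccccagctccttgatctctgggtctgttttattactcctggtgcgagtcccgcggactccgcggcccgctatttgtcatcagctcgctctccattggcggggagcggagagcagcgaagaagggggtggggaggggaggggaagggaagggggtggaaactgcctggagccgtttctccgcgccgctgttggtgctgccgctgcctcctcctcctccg
CTNNB1: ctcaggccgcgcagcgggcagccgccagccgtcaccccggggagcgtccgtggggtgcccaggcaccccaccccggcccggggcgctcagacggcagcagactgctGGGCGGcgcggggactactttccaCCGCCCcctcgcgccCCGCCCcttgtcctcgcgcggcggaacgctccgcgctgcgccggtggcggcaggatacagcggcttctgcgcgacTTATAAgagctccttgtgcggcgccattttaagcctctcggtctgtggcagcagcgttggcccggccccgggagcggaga
The CDH2 promoter is 67.0% G and C and holds 1 GC box, 177 bases before the start, and no TATA motif. The CTNNB1 promoter is 74.0% G and C and holds 3 GC boxes, 144, 120 and 105 bases before the start, and overlapping TATA matches 30 and 29 bases before it. A GC box stood in 44.6% of all 27305 promoters of this length and a TATA motif in 21.1%, and in 71.1% and 10.6% of the 10068 promoters of tested genes. Neither promoter, nor that of CTNNA1, holds the E-box CAGGTG or CACCTG, the word bound by SNAI and ZEB factors, which 20.6% of all promoters hold on either strand, and 18.5% of those of tested genes. The hypoxia response element has a core of ACGTG or GCGTG. The form ACGTG or its complement CACGT is in none of the 3 promoters, but in 21.6% of all promoters and 27.1% of those of tested genes. The form GCGTG or CACGC is in the CDH2 promoter, 199 bases before the start, and in that of CTNNA1, 19 bases before it, and in 36.3% of all promoters and 51.2% of those of tested genes.

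Regulators known to act on the CDH1 promoter or on epithelial splicing were called about as often as other genes. Of 21 such regulators 17 were tested, of which 3 were higher, 1 lower and 13 neither, or 23.5% called beside 23.9% over all tested genes, around a median of 0.22. TCF3, whose E proteins can repress CDH1, had 777 and 2060 counts and a ratio of 0.93 [0.81 to 1.05]. TWIST1, a mesenchymal factor, was at 0.87 [0.42 to 1.34] on 57 and 145 counts, and OVOL2, which upholds epithelial identity, at 0.63 [0.31 to 0.97] on 114 and 246 counts. TCF4, another E protein gene, was lower, at -0.81 [-1.24 to -0.38] on 106 and 84 counts. After the adjustment TCF3 was at 0.72, and TWIST1, OVOL2 and TCF4, at 0.51, 0.29 and -0.26, lay under 1.5-fold. SNAI2, or Slug, was the most abundant of the repressors, at 38.8 and 30.9 FPKM, with a ratio of -0.37 [-0.46 to -0.28]. SNAI1 and TWIST2 went the other way, under 1.5-fold and on few counts. SNAI1 was at 0.52 [-0.07 to 1.15] on 36 and 72 counts, and TWIST2 at 0.52 [0.14 to 0.92] on 83 and 166. ZEB1 had 0 and 4 counts and ZEB2 12 and 25, both too low to test. GRHL2, an activator of CDH1, had a ratio of -0.36 [-0.44 to -0.28], and the splicing factor gene ESRP1 was at -0.02 [-0.06 to 0.01] with 120.6 and 121.8 FPKM.

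Genes of the beta-catenin destruction complex were lower more often than higher. Of 14 such genes 12 were tested, of which 4 were lower, 0 higher and 8 neither. Among all tested genes 11.7% were lower and 12.2% higher. The median of the 12 was -0.41, and -0.20 after the adjustment, when 2 lay lower by 1.5-fold or more. FBXW11 and BTRC, the F-box proteins that pass phosphorylated beta-catenin to the proteasome, were at -0.89 [-0.97 to -0.81] and -0.66 [-0.81 to -0.51], with 2843 and 2126 counts for FBXW11. APC, the scaffold, was at -0.78 [-0.95 to -0.61], and AMER1, which brings APC to the membrane, at -0.99 [-1.36 to -0.62]. After the adjustment APC and BTRC lay under 1.5-fold, at -0.45 and -0.54, and FBXW11 and AMER1 at -0.79 and -0.93. No kinase gene of the complex was called, with GSK3A at 0.44 [0.33 to 0.54], GSK3B at 0.00 [-0.07 to 0.08] and CSNK1A1 at -0.50 [-0.57 to -0.44]. AXIN1 was at 0.14 [0.03 to 0.24].

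Nuclear partners of beta-catenin were also called at about the share of all tested genes, and 8 of its 20 listed targets were too low to test. Of 13 tested nuclear factors 1 was higher and 2 were lower, or 23.1% called beside 23.9%, around a median of -0.04. TCF7L1, a TCF factor that mostly represses, was 2.31-fold higher, at 1.21 [0.97 to 1.45] on 191 and 613 counts. BCL9L, a coactivator of beta-catenin, was at -0.78 [-0.90 to -0.66] and CHD8, a chromatin remodeller that restrains it, at -0.71 [-0.82 to -0.61], with CHD8 at -0.40 after the adjustment. Of 20 Wnt target genes 12 were tested, of which 1 was higher and 1 lower, around a median of -0.06. The share called was 16.7% beside 23.9%, a gap that so few genes cannot resolve. Ratios lay above 0 for 5 of the tested targets and below 0 for 7. CCND1, cyclin D1, had 7934 and 5483 counts and a ratio of -1.01 [-1.06 to -0.96], and -1.03 after the adjustment. DKK1, also abundant, went the other way but under 1.5-fold, on 4232 and 8617 counts. Its ratio was 0.55 [0.50 to 0.61], and 0.50 after the adjustment. NKD1, a feedback inhibitor, was at 1.02 [0.20 to 1.97] on 16 and 46 counts. AXIN2, the most widely used Wnt target, had 7 counts in each library and was not tested, LGR5 had none, and MYC was at -0.11 [-0.15 to -0.07]. CTNNBIP1, an inhibitor that keeps beta-catenin from TCF factors, was the single called gene of 6 tested catenin and armadillo partners, at 0.60 [0.41 to 0.78], and 0.35 after the adjustment. JUP, plakoglobin, which can take the place of beta-catenin at junctions, was at 0.45 [0.38 to 0.52] with 2586 and 4916 counts, under 1.5-fold, and 0.20 after the adjustment. CTNNAL1, alpha-catulin, was at -0.17 [-0.24 to -0.11]. At 74.2 and 67.6 FPKM it exceeded all 3 catenin members, an order that depends on its deposited exonic size of 3124 bases. In counts, at 3704 and 4563, it lay below CTNNA1 and CTNNB1 in both libraries.

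No linker from the junction to actin reached 1.5-fold, though most differed by less. Of 20 actin linker and nectin genes all were tested and 0 were called in either direction, where the rule called 23.9% of all tested genes, and their median was -0.09. The intervals of 16 of the 20 excluded no difference. The largest ratios were those of CAMSAP3, a microtubule-binding protein of the junction, at 0.57 [0.18 to 0.97], of EVL, an actin regulator, at 0.56 [0.35 to 0.79], and of NECTIN2 at 0.52 [0.37 to 0.68]. AJUBA and LIMA1, LIM proteins that bind alpha-catenin or actin, were the most abundant, at 0.16 [0.13 to 0.20] and -0.21 [-0.25 to -0.17]. VCL, vinculin, which alpha-catenin recruits under tension, was at -0.46 [-0.53 to -0.40], and AFDN, afadin, at -0.27 [-0.36 to -0.19]. Of 20 tested genes of cadherin processing and traffic 1 was higher and 3 were lower, or 20% called beside 23.9% over all tested genes. By direction, 15% were lower beside 11.7%, and 5% higher beside 12.2%. RAB11FIP1, an effector of recycling endosomes, was at -1.60 [-1.85 to -1.36] on 440 and 201 counts, and -1.48 after the adjustment. ADAM10, the protease that sheds E- and N-cadherin, was at -0.91 [-0.98 to -0.83], and ADAM15 at 0.81 [0.70 to 0.91]. CBLL1, or Hakai, a ubiquitin ligase for E-cadherin, was at -0.62 [-0.74 to -0.51]. ADAM10, ADAM15 and CBLL1 lay under 1.5-fold after the adjustment, at -0.49, 0.54 and -0.47.

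**Figure D4:**
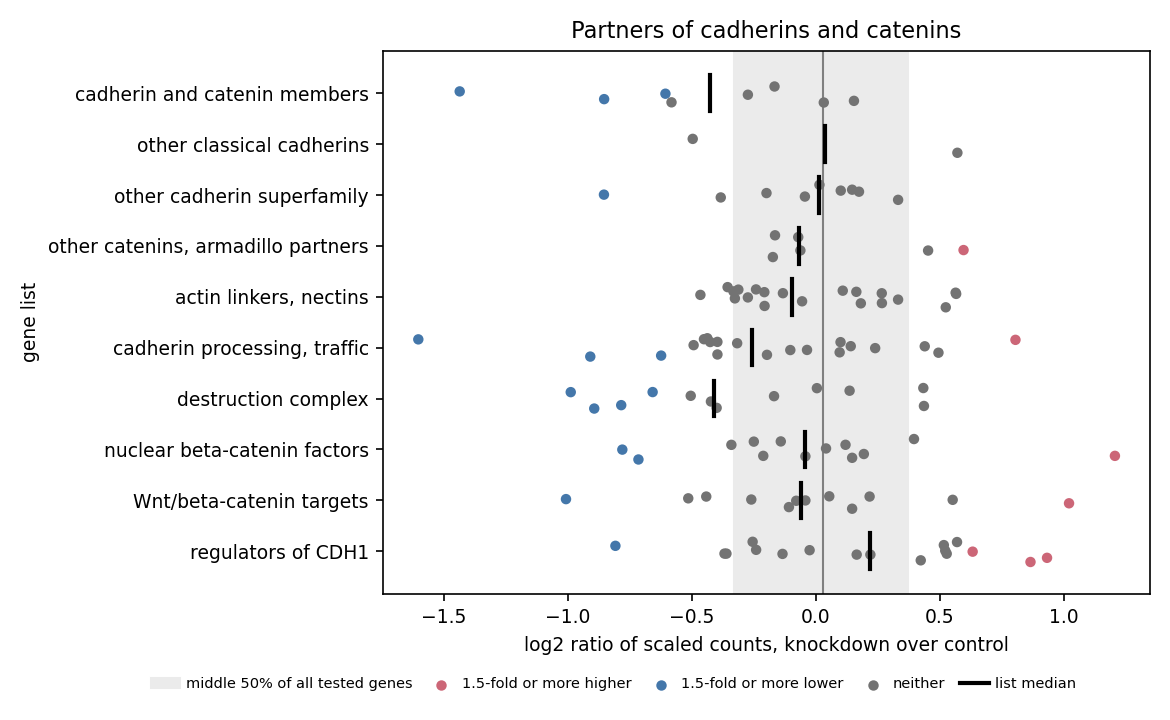
Log2 ratio, knockdown over control, of each tested gene in the members' list and 9 lists of partners, with list medians (black bars) and the middle 50% of all tested genes (grey). The 20 actin linkers and nectins hold no called gene, and 4 of 12 destruction complex genes are called lower.

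Exonic length moved with the difference between the libraries. Across 13375 tested genes, which are not independent replicates, Spearman's rank correlation between exonic size and the log2 ratio was -0.38. The median log2 ratio over 5 equal groups of genes by length ran from 0.37 in the shortest, up to 2776 bases, to -0.24 in the longest, from 8874 bases, where 20.8% were called lower. The 8 members had a median exonic size of 9928 bases beside 5182 over all tested genes. CDH11, CDH13, CTNNB1 and CTNND1 fall in the longest group, CDH2, CDH3 and CTNNA1 in the next and CDH1 in the middle group. After the adjustment CDH11 was at -1.15 and CDH2 at -0.68, past 1.5-fold, and CTNNB1 and CDH13 were at -0.32 and -0.32, under it. CTNNA1 was then at -0.12, CDH3 at -0.20, CDH1 at 0.09 and CTNND1 at 0.44, and the median of the 8 genes was -0.26. The part of length in these differences was not tested beyond this fit.

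**Figure D5:**
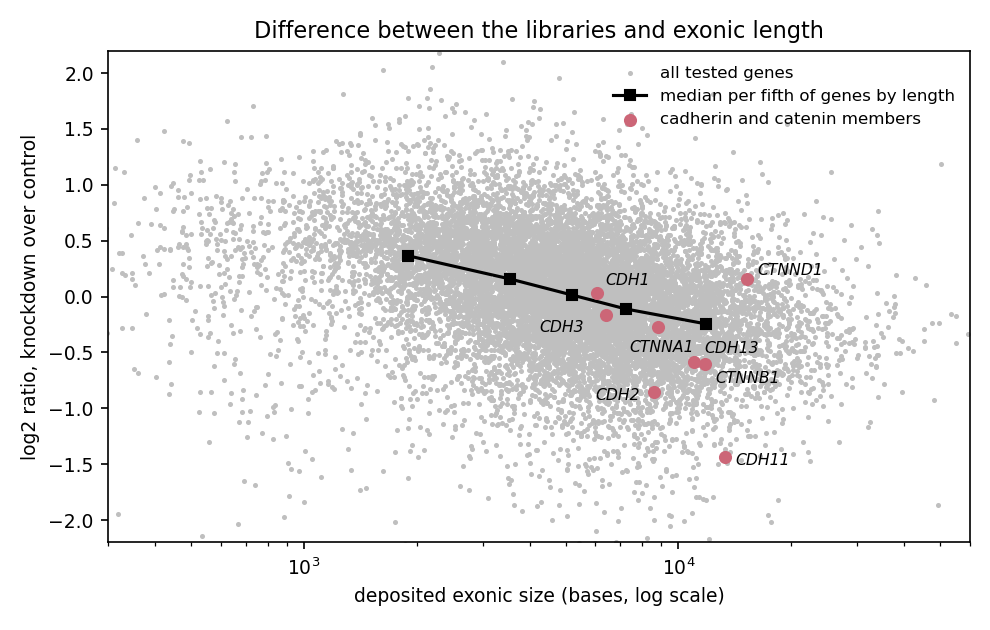
Log2 ratio, knockdown over control, against the deposited exonic size in bases on a log scale, for all tested genes (grey), the cadherin and catenin members (red) and the median of each of 5 length groups (black squares). The medians run from 0.37 to -0.24, and 65 genes lie outside the plotted range.

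The 3′ untranslated regions were searched for a pair of words, GCTAATG and TCGGAGA, that an earlier search of these same libraries had picked out, so their values are no independent support. Of 11676 tested genes with an annotated 3′ untranslated region of at least 50 bases, the 993 that hold GCTAATG had a median log2 ratio of -0.41, and those without it 0.05. The 256 genes that hold TCGGAGA had a median of 0.09, and those without it 0.01. None of the 8 members holds either word in its longest annotated 3′ untranslated region, which spans 1111 bases for CTNNB1, 1187 for CDH2, 4338 for CDH11 and 5610 for CDH13.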

How the data were processed

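Counts per gene were deposited raw by the authors, with no normalization, beside FPKM values that, per the file headers, are scaled to exonic length in kilobases, with exonic sizes as deposited, and to library size. Recomputed FPKM differed from them by at most 0.005. Per the submitters' processing notes the tools included STAR, HISAT2 and edgeR and the build GRCh38, with neither role nor version. Per the labels' protocols the kit was stranded or an equivalent. How reads were counted, with which strand setting and annotation, is not given in the sources used here.

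TMM factors from edgeR 4.0.16 in R 4.3.3 were 0.987 (control) and 1.01 (knockdown). Each gene was described by the log2 ratio of scaled counts after adding 0.5, with exact Clopper-Pearson 95% intervals, and Poisson intervals for FPKM. Ratios of a pair of genes carry exact conditional intervals. None of these covers more than counting error, and reads that carry no molecular identifier are not independent molecules. A count of 0 allows up to 0.19 CPM in the control and 0.137 in the knockdown library, taking 3 counts as the limit. With 1 library per group no test and no p-value was computed.

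The adjustment subtracted a fit of the log2 ratio, capped at 3 in size, on exonic length, GC content and abundance (linear and squared terms). GC content of the longest transcript came from GENCODE release 29 by gene identifier, for 99.1% of tested genes. Ratios and the fit were checked on simulated data. The alternatives tried were scaling with DESeq2 1.42.0 or by total counts, an offset of 2, other filters, FPKM with 0.1 added, a 2-fold rule and an assumed coefficient of variation of 0.2 between cultures. Computation used scipy 1.17.1 under Python 3.11.15.

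The members and the gene lists were chosen with earlier results of these data known. Named genes are COL17A1, the 8 members and, from each list, up to 4 called genes by the interval bound nearest to no difference or, with fewer than 2 called, also the 2 most abundant. Other listed genes named were chosen after their values were seen. The genes of 1 list are not reported here.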

Additional observations from a re-analysis of the deposited data

How the results depend on the processing

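No paired analysis was possible because each group holds 1 library, and leaving out a library was not possible for the same reason. Of the members, CDH2 was lower at 1.5-fold or more under all alternatives but the 2-fold rule, and CDH11 under all but the filter at 5 CPM, which it did not pass. CTNNB1 was not called with total counts, FPKM, an assumed coefficient of variation of 0.2, the adjustment or the 2-fold rule. CDH13 was called with DESeq2 size factors, at -0.60. No member was called higher under these alternatives. The 2-fold rule called 1 member lower, and 407 genes higher and 480 lower of all tested, beside 1636 and 1564 at 1.5-fold. An assumed coefficient of variation of 0.2 left 532 and 722, and the adjustment 1004 and 1239. The joint share of CDH1 and CDH3 was 91.8% and 94.5% in counts not divided by length, and 93.6% and 95.8% with the longest annotated transcript as length. Of 46 genes followed under each alternative, none that was called changed sign under these alternatives, and the adjustment moved 26 beyond their counting interval. The median log2 ratio of all tested genes was 0.07 with total counts and 0.01 with DESeq2 size factors. Depth limits CDH11, with 55 and 28 counts, most among the members.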

Other observations

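Of 26 cadherin superfamily genes outside the classical and desmosomal cadherins 9 were tested, of which 1 was lower and 0 higher, or 11.1% called lower beside 11.7% over all tested genes, around a median of 0.01. The intervals of 5 of the 9 excluded no difference, FAT4, FAT2, CELSR2, CLSTN3 and PCDH1. CLSTN1, a calsyntenin, was the most abundant, at 56.8 and 58.9 FPKM with a log2 ratio of 0.01 [-0.04 to 0.07], and PCDH1, a protocadherin of epithelia, was at 0.17 [0.04 to 0.31]. FAT4, a giant cadherin that acts with DCHS1 in planar polarity, was at -0.85 [-1.53 to -0.20] on 47 and 36 counts, and -0.48 after the adjustment. FAT2 had 1538 and 1638 counts and a ratio of -0.38 [-0.48 to -0.28], whereas its relative FAT1 had 0 counts in both libraries. A count of 0 allows FAT1 a level of up to 0.19 CPM in the control and 0.137 in the knockdown library. A total of 8 of the 26 genes had no count in either library, FAT3, DCHS1, DCHS2 and the protocadherin genes PCDH9, PCDH17 and PCDH19 among them.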
